A study of Mus musculus with 6 samples.

Results

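The cytosolic ribosomal protein genes were taken as all mouse gene symbols of the form Rpl or Rps plus a number, with *Rpsa* and the stalk genes *Rplp0*, *Rplp1* and *Rplp2*, in the annotation of the array's probe sets. The annotation holds 79 such symbols. For 67 of them, 42 of the large and 25 of the small subunit, at least 1 probe set carries that symbol alone, and these 67 of the 22180 genes with such a probe set were compared. Where a gene had more than 1 probe set of its own, the one with the highest mean over the 6 arrays was used. The other 12 genes lie only on probe sets that carry several symbols and are described separately. Membership goes by the symbol alone.

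Adult male C57BL6 mice of both genotypes were compared, Slug-/- (3 samples) and Slug+/+ (3 samples). Slug, encoded by *Snai2*, is a zinc finger repressor that binds E-box sequences. Quiescent satellite cells (SCs), the stem cells of skeletal muscle, were sorted from uninjured hindlimb muscle as cells with CD34 and integrin alpha 7 on their surface and without CD45, Sca1, CD11b or CD31, and RNA was taken without culture. Each sample was hybridised to 1 whole-transcript array. The labels call the samples of a genotype biological replicates without saying whether each is 1 mouse or a pool, so p-values measure the spread between these samples only. In the paper, Slug-/- mice are global knockouts, apart from its mice that lack *Slug* in SCs only.

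A ribosome is made of a small subunit, which reads the mRNA, and a large subunit, which joins amino acids, and each holds 1 copy of most of its proteins. Because the proteins are needed in equal amounts, their genes are usually transcribed strongly and together in all cells. Their mRNAs begin with a C followed by a run of pyrimidines, the terminal oligopyrimidine (TOP) tract, through which mTORC1 signalling sets how well they are translated. Quiescent satellite cells are small cells with little cytoplasm and low protein synthesis, which rises when they are activated. An array of total RNA measures mRNA amounts relative to other mRNAs of the same sample, and not translation or the number of ribosomes per cell.

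Pyrimidine runs and the E-box letters were looked for in RefSeq promoter windows (GRCm38.p6, 250 bases before to 50 after each annotated start), and examples are shown. Whether Slug acts on these genes was not tested. Each line gives 30 bases on the strand of the gene, and capitals mark the pyrimidine run for *Rps6* (chr4:86857349-86857378, minus strand), *Rpl7a* (chr2:26910789-26910818, plus strand), *Rplp2* (chr7:141447636-141447665, plus strand) and *Rps27l* (chr9:66946063-66946092, plus strand), and the E-box letters CAGGTG for the pair of annotated starts of *Rpl22* (chr4:152324229-152324258 and chr4:152325545-152325574, plus strand).
Rps6: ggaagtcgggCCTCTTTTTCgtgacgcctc
Rpl7a: acaattCCCTCTTCTTTCTTTCTCCagcag
Rplp2: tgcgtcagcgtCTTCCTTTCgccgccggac
Rps27l: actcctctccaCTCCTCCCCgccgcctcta
Rpl22, first start: gtcctgtgctctCAGGTGttctgggctgca
Rpl22, second start: ttcttatccggcCAGGTGgtgatttgttta

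Of the runs printed, that of *Rps27l* begins at base −12 from the annotated start and is 9 bases long. It thus ends before that start and is not a TOP tract by this annotation, and the other window of *Rps27l* held no run. Windows were found for 52 of the 67 genes, 61 windows in all. A C followed by at least 7 pyrimidines on the gene's strand, between 20 bases before and 50 after the start, was found in 40 of the 61 member windows (65.6%) and in 20% of all 32851 windows. The search did not require a run to begin at the start, so these shares are not shares of TOP tracts. The run of *Rps19* begins at base 42, and that of *Rpl39* begins at base −20 and is 8 bases long. CAGGTG on either strand was found in 8 of the 61 windows (13.1%), of 7 genes, and in 20.2% of all windows. The log2 difference, Slug-/- minus Slug+/+, was above 0 for 5 of the 7 genes and for 25 of the 45 without it. It was below 0 for *Rpl39* (−0.23) and *Rpl3l* (−0.04), and *Rpl22*, printed above, had the largest of the large subunit. CCGGAAG, a form of the Ets motif, was found on either strand in 37.7% of member windows and 8.86% of all windows. CCGGAAG read from the opposite strand, CTTCCGG, begins with pyrimidines and can overlap the run. A match is a description of the window only.

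Measured ribosomal protein mRNAs differed little between the genotypes. The median log2 difference, Slug-/- minus Slug+/+, was 0.06 over the 42 large subunit genes and 0.04 over the 25 small subunit genes, and −0.01 over all 22180 genes. Of the large subunit genes 25 were above 0 and 17 below, and of the small subunit genes 15 were above 0 and 10 below, against 48.4% of all genes above 0. At a mean log2 value above 8, the median was 0.07 over 31 members (22 above 0) and 0.08 over 415 genes (65.3% above 0). Differences of the 67 genes spanned −0.49 to 0.56, so none reached a fold of 2, and 1 of them (*Rps4l*) was past 0.5 in size. No member passed an adjusted p of 0.05 in limma (lowest 0.823), and neither did any other gene (0% called). At an unadjusted p under 0.05, 1 member was higher and 0 were lower in Slug-/- SCs, against 3.31% of all genes higher and 2.49% lower.

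**Figure D1:**
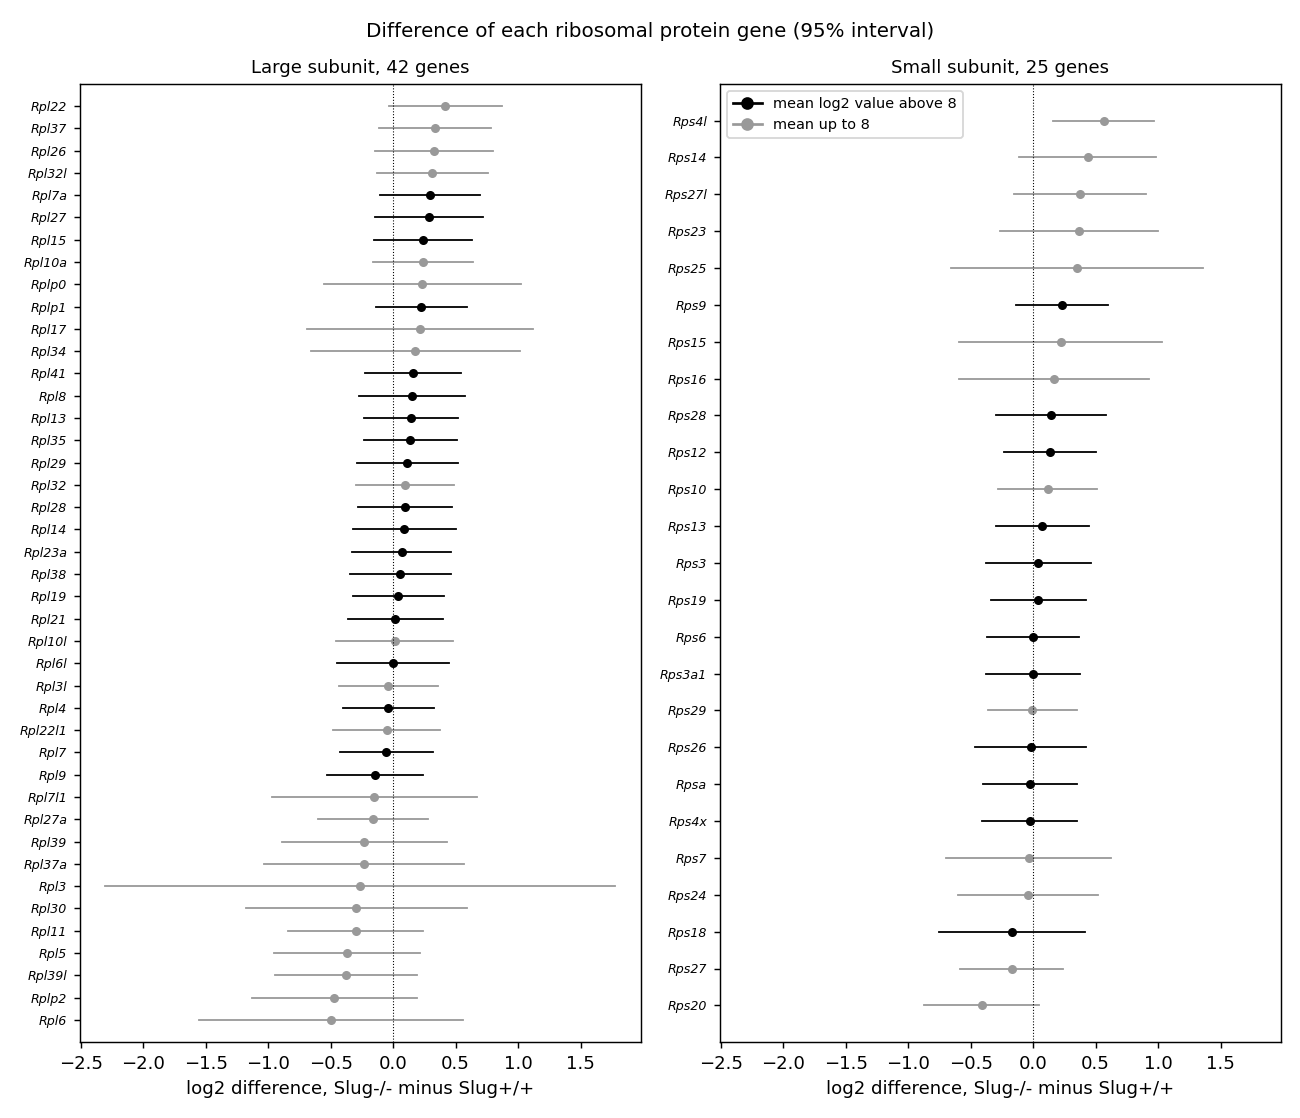
Log2 difference, Slug-/- minus Slug+/+ SCs, of each measured ribosomal protein gene (points) with its 95% interval from limma (lines), large subunit left and small subunit right, in black where the mean log2 value was above 8. The interval of *Rps4l* alone lies wholly on one side of 0, and that of *Rpl3* is the widest.

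The 2 subunits were also set side by side array by array, as the median over their genes of each log2 value minus the gene's mean over the 6 arrays. Large subunit medians were 0.11, −0.04 and 0.05 on the Slug-/- arrays, against −0.08, −0.11 and 0.03 on the Slug+/+ arrays. Small subunit medians were 0.10, −0.05 and 0.00 on the Slug-/- arrays, against −0.11, −0.02 and 0.05 on the Slug+/+ arrays. In both subunits the genotypes overlapped, because the second Slug-/- array was below the third Slug+/+ array. The SD of these medians between arrays of 1 genotype was 0.07 to 0.08. Their means were 0.04 in Slug-/- and −0.06 in Slug+/+ SCs for the large subunit, and 0.02 and −0.03 for the small subunit. The medians over genes of the differences, a separate measure, were 0.06 and 0.04. Without the first Slug-/- array the medians of the differences were 0.03 for the large and 0.00 for the small subunit, and without the second they were 0.13 and 0.11. Without the third Slug-/- array they were 0.03 and 0.01, and the small subunit median was 0.01 without the first and 0.08 without the third Slug+/+ array.

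**Figure D2:**
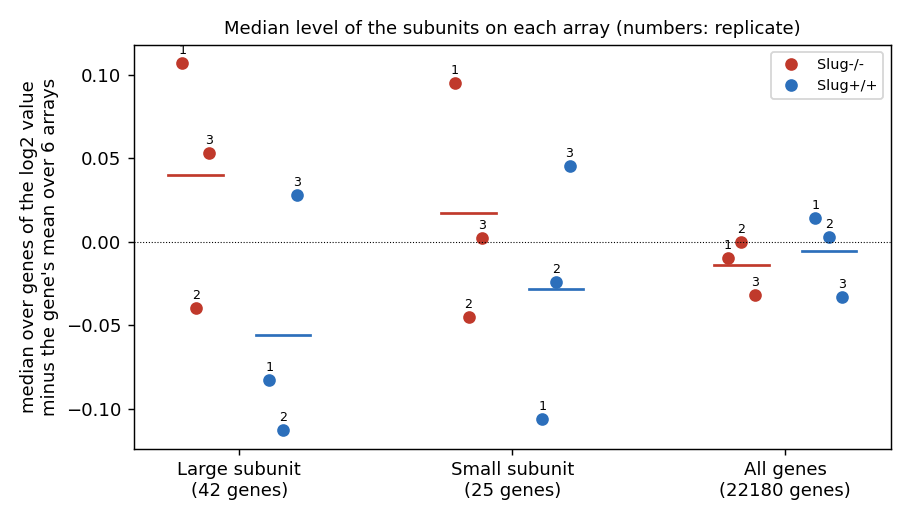
Median over genes of the centred log2 value on each array (points, numbered by replicate) for the large subunit, the small subunit and all genes, Slug-/- left of Slug+/+ in each pair, with lines at the mean of 3 arrays. For both subunits the third Slug+/+ array lies above the second Slug-/- array.

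*Rps4l*, a paralogue of the X-linked *Rps4x*, was the member that passed an unadjusted p of 0.05. It was read on 1 dim probe set (mean log2 value 4.135). Its log2 values were 4.24, 4.49 and 4.52 on the Slug-/- arrays, against 3.75, 3.98 and 3.83 on the Slug+/+ arrays. All Slug-/- arrays lay above all Slug+/+ arrays. The difference was 0.56 (SE, the standard error from limma, 0.17), a fold of 1.48, with an adjusted p of 0.823 from limma. *Rps4x*, which encodes the main small subunit protein of this pair, was 10.13 ± 0.03 in Slug-/- and 10.16 ± 0.13 in Slug+/+ SCs (SD, n = 3 each), a difference of −0.03 with a 95% interval of −0.41 to 0.35. *Rps4l* kept its sign and an unadjusted p under 0.05 in each alternative that held it, and its adjusted p from limma stayed above 0.05 in all of them.

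Together with *Rps4l*, 6 genes had every Slug-/- array above every Slug+/+ array, and they were named after their values were seen. They were *Rpl22*, *Rpl7a*, *Rplp1* and *Rpl35* of the large subunit and *Rps9* and *Rps12* of the small subunit, which makes 7 of 67 genes (4 large, 3 small), against 5.24% of all genes. No member had every Slug-/- array below every Slug+/+ array, against 5.4% of all genes. Among genes with a mean log2 value above 8, every Slug-/- array was above in 5 of 31 members and in 45 of all 415 such genes. Every Slug-/- array was below in 0 of these members and in 18 of the 415 genes. *Rpl22*, an RNA-binding protein of the large subunit that developing T cells need, was 4.80, 4.59 and 4.81 on the Slug-/- arrays, against 4.43, 4.02 and 4.50 on the Slug+/+ arrays. Its lowest Slug-/- value was only slightly above its highest Slug+/+ value. The difference was 0.42 (SE 0.19, adjusted p = 0.877 from limma), on a dim probe set (mean log2 value 4.525).

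*Rpl7a* was 9.86, 9.83 and 9.93 on the Slug-/- arrays, against 9.50, 9.45 and 9.79 on the Slug+/+ arrays. Its difference was 0.30, and the third Slug+/+ array came close to the Slug-/- arrays. *Rps9* was 9.51 ± 0.09 in Slug-/- and 9.28 ± 0.01 in Slug+/+ SCs (SD, n = 3 each), a difference of 0.23. *Rpl35* and *Rps12* had smaller differences of 0.14 each. Adjusted p-values from limma were 0.904 for *Rpl7a*, 0.910 for *Rps9* and 0.947 for both *Rpl35* and *Rps12*. *Rps12* was read by 8 probe sets of its own, of which 6 hold identical values, so these are not separate measurements.

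The stalk of the large subunit, a flexible arm of *Rplp0*, *Rplp1* and *Rplp2* proteins that recruits the elongation factors, did not move one way on the probe sets used. *Rplp0* and *Rplp2* were read at lower signal, with mean log2 values of 5.39 and 3.92 against 11.6 for *Rplp1*. That limits the comparison of the 3 genes. *Rplp1* was 11.72, 11.68 and 11.78 on the Slug-/- arrays, against 11.53, 11.42 and 11.56 on the Slug+/+ arrays, which made a difference of 0.23 (SE 0.16, adjusted p = 0.913 from limma). *Rplp2* was 3.59, 3.61 and 3.84 on the Slug-/- arrays, against 4.71, 3.60 and 4.15 on the Slug+/+ arrays, which made a difference of −0.47 (adjusted p = 0.905 from limma). The Slug+/+ arrays of *Rplp2* spread widely, and the second one lay among the Slug-/- arrays. On a probe set that *Rplp2* shares with the small nucleolar RNA gene *Snora52*, the difference was 0.17, with values of 7.01, 4.29 and 7.03 in Slug-/- and 7.15, 5.84 and 4.84 in Slug+/+ SCs. *Rplp0*, the base of the stalk, was 5.51 ± 0.09 in Slug-/- and 5.27 ± 0.72 in Slug+/+ SCs (SD, n = 3 each), and its sign turned to −0.09 without the second Slug+/+ array.

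**Figure D3:**
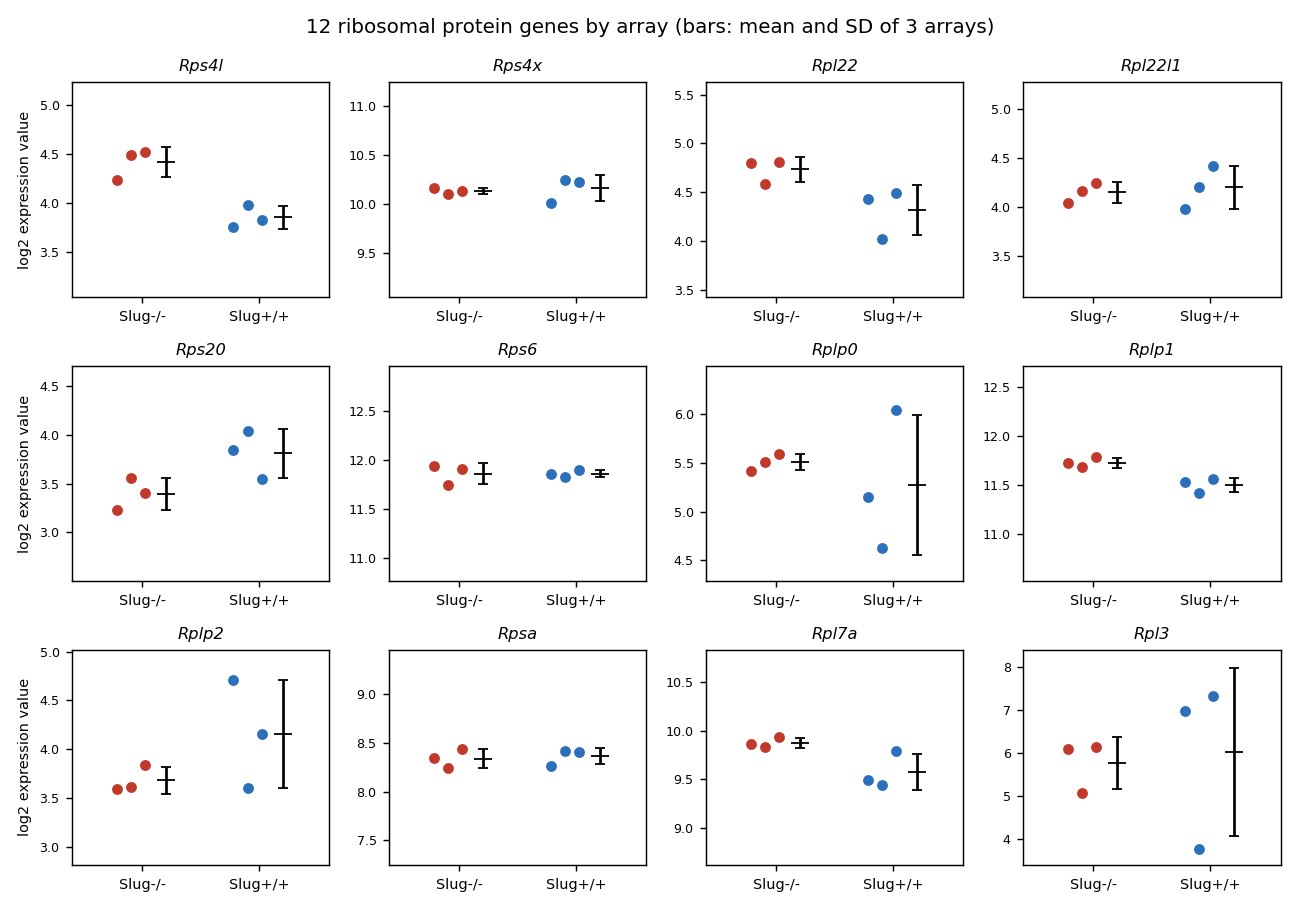
Log2 expression value of 12 ribosomal protein genes on each array, Slug-/- (red) left of Slug+/+ (blue), with the mean and SD of 3 arrays in black. Each vertical axis spans 2.2 log2 units around the gene's mean, except that of *Rpl3*, which spans 5; *Rps4l*, *Rpl22*, *Rplp1* and *Rpl7a* do not overlap between genotypes.

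Of the other small subunit genes, *Rps14*, *Rps27l* and *Rps23* had the largest positive differences after *Rps4l*. *Rps14*, whose loss of 1 copy underlies the anaemia of a human myelodysplastic syndrome, was 4.08, 4.16 and 4.02 on the Slug-/- arrays, against 3.22, 4.07 and 3.66 on the Slug+/+ arrays, which made a difference of 0.44 (adjusted p = 0.897 from limma). The third Slug-/- array lay below the second Slug+/+ array. *Rps27l*, a paralogue of *Rps27* and a target of the tumour suppressor Trp53, was 6.37 ± 0.18 in Slug-/- and 5.99 ± 0.36 in Slug+/+ SCs (SD, n = 3 each), a difference of 0.38. *Rps27* itself was 3.30 ± 0.16 in Slug-/- and 3.48 ± 0.14 in Slug+/+ SCs, a difference of −0.17. That probe set was dim, and on a brighter one shared with *Rps27rt*, with a mean of 9.52, the difference was −0.10. *Rps23*, which lies at the decoding centre of the small subunit, had a difference of 0.37 (SE 0.27).

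*Rps20*, a protein of the head of the small subunit, had the most negative difference of its subunit, read on a dim probe set (mean log2 value 3.60). It was 3.23, 3.56 and 3.41 on the Slug-/- arrays, against 3.84, 4.04 and 3.55 on the Slug+/+ arrays. The second Slug-/- value was just above the third Slug+/+ value, so the genotypes touched. The difference was −0.41 (SE 0.20, adjusted p = 0.881 from limma), and on the second probe set of *Rps20* it was 0.03. *Rps18* and *Rps24* differed by −0.17 and −0.04.

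*Rps6*, whose protein is phosphorylated by the S6 kinases downstream of mTORC1, was 11.94, 11.74 and 11.90 on the Slug-/- arrays, against 11.86, 11.83 and 11.90 on the Slug+/+ arrays. Its difference was 0.00, with a 95% interval of −0.37 to 0.37. *Rps19*, the gene most often mutated in Diamond-Blackfan anaemia, was 8.98 ± 0.13 in Slug-/- and 8.94 ± 0.07 in Slug+/+ SCs (SD, n = 3 each), a difference of 0.04. *Rpsa*, also known as the laminin receptor precursor, was 8.34 ± 0.10 in Slug-/- and 8.36 ± 0.08 in Slug+/+ SCs, a difference of −0.02 whose sign turned when array medians were subtracted. *Rpl38*, whose loss in Tail-short mice disturbs the translation of Hox mRNAs, differed by 0.06 (95% interval −0.34 to 0.46).

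*Rpl5* and *Rpl11* encode the large subunit proteins that, outside the ribosome, bind Mdm2 and so stabilise Trp53. *Rpl5* was 4.48, 4.77 and 3.92 on the Slug-/- arrays, against 4.84, 4.90 and 4.54 on the Slug+/+ arrays, which made a difference of −0.37 (adjusted p = 0.910 from limma). *Rpl11* was 3.11, 3.06 and 2.38 on the Slug-/- arrays, against 3.07, 3.15 and 3.22 on the Slug+/+ arrays, which made a difference of −0.30 (adjusted p = 0.921 from limma). The probe set of *Rpl11* is among those at background. In both genes the third Slug-/- array was the lowest of the 6, and without it the differences were −0.13 and −0.06.

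The most negative difference of the large subunit was that of *Rpl6*, and it rested on 1 array. Its values were 3.69, 3.39 and 3.07 on the Slug-/- arrays, against 3.39, 3.25 and 4.99 on the Slug+/+ arrays, which made a difference of −0.49, and without the third Slug+/+ array the difference was 0.06. *Rpl3*, which lines the entrance to the peptidyl transferase centre, had the widest spread of the members. Its values were 6.09, 5.06 and 6.14 on the Slug-/- arrays, against 6.98, 3.77 and 7.33 on the Slug+/+ arrays, which made a difference of −0.26 (SE 0.88). Leaving out the second Slug+/+ array made it −1.39 and leaving out the third made it 0.39. Of its 3 probe sets, 1 had a positive difference of 0.43 and the others had −0.26 and −0.03. *Rpl37* and *Rpl26* had positive differences of 0.34 and 0.33, with overlapping genotypes.

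Paralogues of the canonical genes made up 9 of the 67 members, and 4 of the 9 were above 0. *Rpl22l1*, which in mice is repressed by Rpl22, was 4.04, 4.17 and 4.25 on the Slug-/- arrays, against 3.98, 4.21 and 4.42 on the Slug+/+ arrays. Its difference was −0.05 (95% interval −0.48 to 0.38), beside 0.42 for *Rpl22*. *Rpl3l*, the paralogue of *Rpl3* made in heart and skeletal muscle fibres, was 3.29 ± 0.10 in Slug-/- and 3.33 ± 0.15 in Slug+/+ SCs (SD, n = 3 each), a difference of −0.04. *Rpl39l*, known from the testis, was 3.57 ± 0.35 in Slug-/- and 3.95 ± 0.29 in Slug+/+ SCs, a difference of −0.38 beside −0.23 for *Rpl39*. *Rpl6l*, *Rpl7l1* and *Rpl32l* differed by 0.00, −0.15 and 0.31, beside −0.49, −0.05 and 0.10 for *Rpl6*, *Rpl7* and *Rpl32*. The probe set of *Rpl6l* had a mean log2 value of 8.16, against 3.63 for *Rpl6*, so this pair does not compare like signals. Which transcripts these probe sets read was not tested. *Rpl10l*, another testis paralogue, differed by 0.01. The probe sets of *Rpl32l* and *Rpl10l*, with mean log2 values of 1.46 and 2.10, lay at or below 3.04, the 95th percentile of olfactory receptor genes, so their differences say little of these genes. A ribosomal protein gene with another kind of name, *Fau*, which encodes a ubiquitin-like protein fused to a small subunit protein, differed by 0.13 (SE 0.19), and *Rack1* had no probe set of its own.

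How well a member was measured depended on its signal. The mean log2 value was above 8 for 31 members, 19 of the large and 12 of the small subunit, and for 415 of all genes (1.87%). Differences of these 31 genes lay between −0.17 and 0.30, with a median of 0.07 (0.02 without the first and 0.13 without the second Slug-/- array, and 0.03 without the first Slug+/+ array) and 22 above 0, and the median over the 415 genes was 0.08, with 65.3% above 0. The residual SD within genotypes had a median of 0.10 over the 31 members and 0.24 over the 415 genes. Of the large subunit 15 of 19 such genes were above 0, and of the small subunit 7 of 12. For the 36 members with a mean up to 8, the median difference was 0.00 and 18 were above 0.

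At the dim end, 7 members lay at or below 3.04, the 95th percentile of the mean signals of olfactory receptor genes, which these cells are not known to use. They were *Rpl11*, *Rpl27a*, *Rpl30*, *Rpl37* and *Rps16*, whose mRNAs every cell needs, and the paralogues *Rpl10l* and *Rpl32l*. A probe set at this signal says little of the level of its gene or of its change. A dim signal above 3.04 can mislead as well. The own probe set of *Rpl37a* had a mean of 4.45, against 11.80 on a shared one, and that of *Rps27* had 3.39 against 9.52. *Rps14*, *Rps20*, *Rps23*, *Rpl6* and *Rplp2*, with means of 3.87, 3.60, 3.75, 3.63 and 3.92, may carry the same limit. So may *Rps4l* and *Rpl22*, with means of 4.135 and 4.525. The spread was not widest at background: the median residual SD was 0.22 over the 7 members there, 0.30 over the 17 between background and 5, and 0.46 over the 12 between 5 and 8. The 95% interval of the difference lay within −0.5 to 0.5 for 21 of the 67 members. It lay within −1 to 1 for 57 of them, so a change of a factor of 2 lay outside these 57 intervals. Among the 57 are *Rpl11*, *Rpl27a*, *Rpl37*, *Rps16*, *Rpl10l* and *Rpl32l*, which lay at background. An interval there describes the probe set and sets no bound on the change of the gene.

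**Figure D4:**
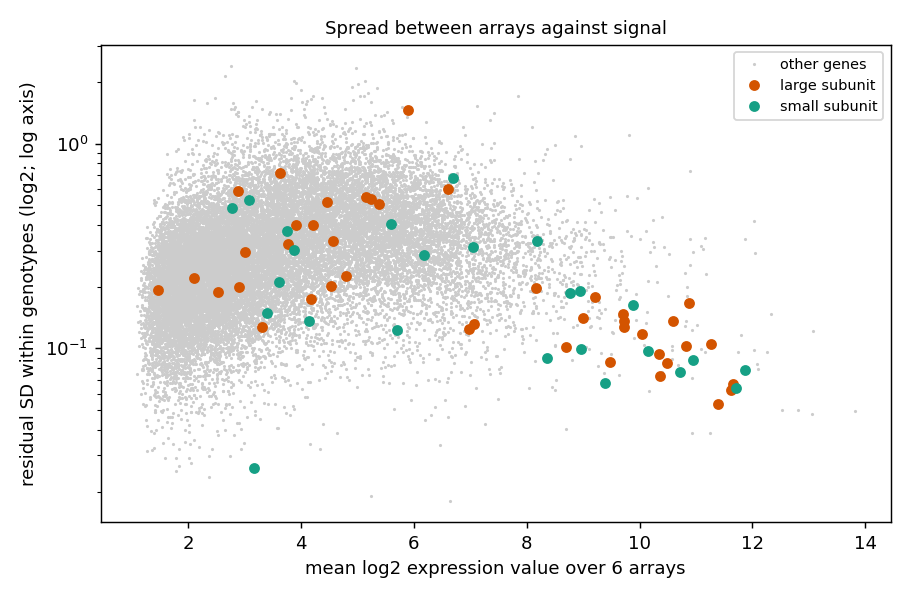
Residual SD of the log2 values within genotypes (log axis) against the mean log2 expression value over the 6 arrays, for large subunit genes (orange), small subunit genes (green) and all other genes (grey). Members above 8 had a median SD of 0.10, and *Rpl3* had an SD of 1.45.

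Of the 67 genes, 10 also lie on a probe set with several symbols whose signal was higher than that of their own, most of them shared with pseudogenes or predicted genes. On these shared probe sets 8 of the 10 differences were above 0, against 4 of 10 on the genes' own probe sets, and 6 kept their sign. *Rpl34* with its pseudogene was 10.78, 10.35 and 10.63 on the Slug-/- arrays, against 10.23, 10.25 and 10.32 on the Slug+/+ arrays, which made a difference of 0.32 with no overlap. *Rpl37a*, on a probe set shared with *Mir682*, was 11.88, 11.83 and 11.92 on the Slug-/- arrays, against 11.72, 11.68 and 11.77 on the Slug+/+ arrays, also with no overlap. On its own dimmer probe set *Rpl37a* differed by −0.23.

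The 12 genes found only on shared probe sets were *Rpl10*, *Rpl12*, *Rpl13a*, *Rpl23*, *Rpl24*, *Rpl31*, *Rpl35a*, *Rpl36*, *Rpl36a*, *Rps2*, *Rps15a* and *Rps21*. By the shared probe set of highest signal, 10 of the 12 were above 0, with a median of 0.08 and a range of −0.14 to 1.41. *Rps2* stood apart. On a probe set it shares with 2 predicted genes it was 6.49, 6.60 and 6.46 on the Slug-/- arrays, against 4.28, 5.17 and 5.85 on the Slug+/+ arrays, which made a difference of 1.41 (SE 0.39, adjusted p = 0.889 from limma over all probe sets). On the second probe set of the same 3 genes it was 4.27, 4.26 and 4.28 in Slug-/- and 4.32, 4.48 and 4.49 in Slug+/+ SCs, a difference of −0.16. Which of the genes these probes read cannot be told apart, and neither value is a measurement of *Rps2* alone.

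Of the 67 members, 25 had more than 1 probe set of their own, and in 15 of these 25 the probe sets did not all have the same sign. In the 10 others the sign was shared by all probe sets, as in *Rpl7a* (3 of 3), *Rpl41* (5 of 5), *Rpl35* (3 of 3) and *Rps26* (0 of 2 positive). *Rpl23a* is among the 10, but its 2 probe sets hold identical values and are not separate measurements. *Rplp1* had 1 of 2 positive, with 0.23 on the probe set used and −0.06 on the other.

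The other machinery that makes and uses ribosomes was described from lists of named genes. Ribosome assembly factors, the proteins that build subunits in the nucleolus, had a median difference of 0.18 over 89 measured of 94 genes, with 63 above 0, 7 higher and 3 lower at an unadjusted p under 0.05. Without the first Slug-/- array the median of the assembly factors was 0.10, and without the second it was 0.29. The first by p was *Utp6* of the small subunit processome, at 4.50 in Slug-/- and 3.37 in Slug+/+ SCs on average. Translation initiation factors had a median of 0.24 over 30 genes (3 higher, 1 lower), led by *Eif2b2*, a subunit of the exchange factor for eIF2, at 6.11 in Slug-/- and 4.95 in Slug+/+ SCs. Elongation factors had a median of 0.11 over 10 genes and regulators of TOP mRNA translation 0.13 over 16 genes, with none past an unadjusted p of 0.05 in either list. The median of the elongation factors was 0.18 without the second Slug-/- array, and that of the regulators was 0.06 without the first and 0.07 without the third Slug+/+ array. RNA polymerase I and its factors had a median of 0.18 over 19 genes (0.03 without the third Slug-/- array and 0.10 without the first Slug+/+ array), and *Ttf1*, a termination factor, was the 1 gene past that threshold, lower in Slug-/- SCs. No gene of these lists passed an adjusted p of 0.05 in limma.

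A pair of other large complexes gave a scale for these values. Mitochondrial ribosomal proteins had a median difference of 0.10 over 71 genes, with 42 above 0, 3 higher and 0 lower at an unadjusted p under 0.05. Proteasome subunits had a median of 0.26 over 38 genes, with 33 above 0, 6 higher and 0 lower. The shares of all genes were 48.4% above 0, 3.31% higher and 2.49% lower. The difference between these lists and the cytosolic ribosomal proteins was not tested.

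**Figure D5:**
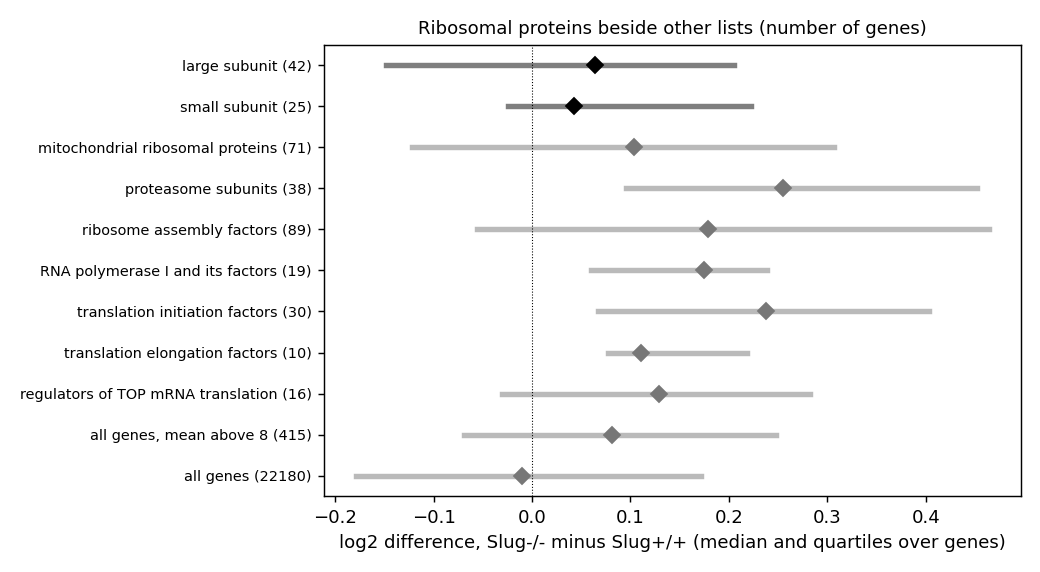
Median (diamonds) and quartiles (bars) over genes of the log2 difference, Slug-/- minus Slug+/+, for the 2 subunits (black) and for other lists (grey), with the number of genes in brackets. The medians of the subunits, 0.06 and 0.04, lie between those of all genes (−0.01) and of the proteasome subunits (0.26). That of all genes with a mean above 8 was 0.08.

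Whether the members moved with the makeup of the samples was described from marker lists. *Snai2* was 5.15, 5.11 and 4.59 in Slug-/- and 6.25, 6.66 and 6.53 in Slug+/+ SCs. Satellite cell markers had a median difference of 0.11 over 11 genes (0.00 without the second Slug-/- array, 0.04 without the first, −0.10 without the second and 0.25 without the third Slug+/+ array), with *Pax7* at 8.70, 9.41 and 9.43 in Slug-/- and 9.40, 9.13 and 9.57 in Slug+/+ SCs. The 7 measured activation and cell cycle markers were all above 0, with a median of 1.56 (1.03 without the third Slug-/- array) and 5 past an unadjusted p of 0.05, among them *Mki67* at 6.10 in Slug-/- and 3.63 in Slug+/+ SCs. Of all genes, 3.31% were higher at that threshold. Immediate early and dissociation stress genes had a median difference of −0.25 over 17 genes, which rested on the first Slug-/- array. Their centred medians were −0.48, 0.09 and 0.06 on the Slug-/- arrays, against 0.06, 0.15 and 0.22 on the Slug+/+ arrays, and without the first Slug-/- array the median difference was −0.07. The same array had the highest median of both ribosomal subunits. Of 39 markers of other cell types (10 myofiber, 6 fibro-adipogenic, 6 endothelial, 8 leukocyte, 6 pericyte and 3 glial genes), *Lum* and *Emcn* were higher and *Cd68* was lower at an unadjusted p under 0.05. The shares of all genes were 3.31% higher and 2.49% lower. The part of these marker lists in the members' differences was not tested.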

How the data were processed

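SCs of 3 Slug-/- and 3 Slug+/+ samples were profiled on Mouse Gene 2.0 ST arrays. RNA had an integrity number above the authors' limit, and the authors used the Gene Expression Console software to make the deposited log2 values for 41345 probe sets. Its algorithm is not stated in the sources used here. Samples were grouped by their labels, and 0 columns of samples went unused.

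Of the probe sets, 23521 carried 1 symbol, 1820 several and 16004 none in the platform annotation. The brightest of each gene's probe sets with 1 symbol was tested in R 4.3.3 with limma 3.58.1 (lmFit, eBayes, prior degrees of freedom 3.57, Benjamini-Hochberg adjustment over 22180 genes), with no filter on dim probe sets. For probe sets with several symbols limma was fitted on all probe sets. Steps were tested on simulated data. The members and lists were chosen with earlier results of these data known. Named members were those past an unadjusted p of 0.05, the 4 with the largest difference in each direction and subunit, the stalk genes, *Rpsa*, *Rps6*, *Rpl5*, *Rpl11*, *Rps19*, *Rpl38*, the paralogues with their parent genes, and *Fau*, to which those whose Slug-/- arrays all lay above the Slug+/+ arrays were added after seeing their values; of other lists, those past that threshold or else the 2 with the smallest p, of which the text prints some. All 67 members matched the RefSeq gene table; it holds 10 more symbols of this form that were not analysed here, and promoter windows came from the same source. Replicates of a genotype differed from each other with an SD of 0.724 to 0.769 over all probe sets. The number of arrays limits the precision. Alternatives were other ways of joining probe sets, other normalizations, an intensity trend with a robust prior, array weights, a plain unpaired test, a signal filter, the replicate number as a block, no paralogues, each array left out and, added after seeing the data, members above a mean of 8 only and the other lists without each array.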

Additional observations from a re-analysis of the deposited data

How the results depend on the processing

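The medians of both subunits moved by less than the SD between arrays (0.075 and 0.073) under every alternative run. This is a loose limit, as it is larger than the medians themselves, 0.06 and 0.04. The medians ran from 0.03 (without the first Slug-/- array) to 0.13 (without the second) for the large and from 0.00 to 0.11 for the small subunit, where the lowest was slightly below 0. The number of genes above 0 was 22 to 29 of 42 in the large and 12 to 20 of 25 in the small subunit when 1 array was left out. With each array's median subtracted it was 28 of 42 and 22 of 25, and after quantile normalization 24 of 42 and 13 of 25, against 25 and 15. With every probe set as a feature it was 42 of 64 and 28 of 44, and with only members above a mean of 8 it was 15 of 19 and 7 of 12. The counts over every probe set include repeated identical values of *Rpl23a*, *Rps12* and *Rps19*.

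Members higher at an unadjusted p under 0.05 numbered 1. They numbered 2 with probe sets of several symbols (*Rps4l* and *Rps2*), 2 with array medians subtracted (*Rps4l* and *Rpl22*), 3 in the plain unpaired test (*Rps4l*, *Rplp1* and *Rps9*), 0 without the paralogues, of which *Rps4l* is one, and 1 to 2 when an array was left out. The second was *Rps14* without the second and *Rplp0* without the third Slug+/+ array. Members lower numbered 0, and 0 to 2 when an array was left out: *Rpl39l* without the third Slug-/- array, *Rpl3* and *Rplp2* without the second Slug+/+ array, and *Rps20* and *Rpl7l1* without the third. Over all genes 0 passed an adjusted p of 0.05 in limma and in the plain test, while 1286 had an unadjusted p under 0.05, and leaving out arrays gave 0 to 1, the 1 being *Mir505* without the second Slug+/+ array.

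Of 38 named genes, 19 changed sign under some alternative, and the median size of their differences was 0.05. With all arrays kept, *Rplp2* was 0.17 with probe sets of several symbols; with array medians subtracted *Rps24* was 0.005, *Rpsa* 0.023, *Rpl3l* 0.01, *Rpl6l* 0.045 and *Rps4x* 0.02; after quantile normalization *Rps6* was −0.036, *Rps19* 0.00 and *Rpl3l* 0.002; with array weights *Rps6* was 0.00; and with probe sets averaged per gene *Rps19* was −0.048, *Rpl3* 0.047 and *Rpl7* 0.23. Leaving out 1 array gave ranges of −0.81 to 0.064 for *Rpl6*, −0.35 to 0.007 for *Rps18*, −0.22 to 0.19 for *Rps24*, −0.088 to 0.62 for *Rplp0*, −0.073 to 0.024 for *Rpsa*, −0.038 to 0.06 for *Rps6*, −0.026 to 0.15 for *Rpl38*, −0.11 to 0.13 for *Rpl10l*, −0.16 to 0.059 for *Rpl22l1*, −0.11 to 0.04 for *Rpl3l*, −0.13 to 0.13 for *Rpl6l*, −0.57 to 0.15 for *Rpl7l1*, −1.39 to 0.39 for *Rpl3*, −0.40 to 0.009 for *Rpl39*, −0.10 to 0.016 for *Rps4x* and −0.033 to 0.22 for *Fau*. The cause was not tested.

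With the replicate number as a block, 1 member was higher and 0 lower at an unadjusted p under 0.05 and 0 genes passed an adjusted p of 0.05, as without it. Deviations of same-numbered arrays correlated at 0.03, 0.02 and 0.14, so the numbers were not taken to pair the samples. The 7 members at background and the spread between 3 arrays a genotype, widest for members with a mean of 5 to 8 (median residual SD 0.46), limit what could be seen, and the 95% interval reached 0.43 to either side of the difference for the median member.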

Other observations

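Some probe sets that ribosomal protein genes share with small nucleolar RNA genes varied widely between arrays, and others, such as that of *Rpl13a* and *Snord34* (11.88, 11.92 and 11.71 in Slug-/- and 12.09, 11.94 and 11.89 in Slug+/+ SCs), did not. The examples were picked after their values were seen. The probe set of *Rps3* and *Snord15b* was 5.48, 1.91 and 5.08 on the Slug-/- arrays, against 6.86, 2.30 and 4.67 on the Slug+/+ arrays, and *Rps3* on its own probe set was 10.08, 9.67 and 9.98 in Slug-/- and 9.77, 9.95 and 9.88 in Slug+/+ SCs. The probe set of *Rps13* and *Snord14a* was 4.42, 2.49 and 5.43 on the Slug-/- arrays, against 2.44, 2.96 and 5.41 on the Slug+/+ arrays. In these 2 probe sets, arrays of 1 genotype lay further apart than the genotypes did. The probe set of *Rpl27a*, *Snora3* and the predicted gene *Gm13981* was 6.82, 6.41 and 6.47 on the Slug-/- arrays, against 5.19, 4.94 and 6.17 on the Slug+/+ arrays, which made a difference of 1.13 with no overlap. On the probe set of *Rpl27a* and *Gm13981* without the small RNA the difference was 0.13.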
